A study of Mus musculus with 10 samples.

Results

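The 10 genes described here, Eln, Fbn1, Fn1, Postn, Tnc, Lox, Fbln5, Sparc, Dcn and Lum, encode proteins of elastic fibres and the glycoproteins and proteoglycans of the extracellular matrix. They were chosen by symbol, as the rows of a lung RNA-seq table that carry one of these names, and they make up 22 of the 66548 transcript rows and 10 of the 24394 gene symbols in the table. Lung tissue of female BALB/c mice, an inbred strain, was compared in 3 groups, which the labels name Saline, OVA and Herb. The mice were 8 weeks old when obtained, and no group carried a genetic change.

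Saline animals (n = 3) were the controls. OVA animals (n = 3) were sensitized with injected ovalbumin, an egg protein, in alum and then challenged with it through the nose, which provokes allergic inflammation of the airways resembling asthma. Herb animals (n = 4) went through the same ovalbumin protocol and received an ethanol extract of Descurainia sophia seeds (DSE) by mouth at 200 mg/kg for 7 days. There was no group that received the extract without ovalbumin. Values are FPKM, a count of fragments corrected for transcript length and for the number mapped in the library, and the rows of a gene were summed unless single rows are named. Because FPKM are per length, levels can be compared between genes. The labels do not say whether the replicates of a group were separate animals, while the authors give these n for samples collected from mice. The p-values measure the spread between these libraries.

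Elastic fibres consist of a core of cross-linked elastin laid down on microfibrils of fibrillin, and they let the lung stretch and recoil with each breath. Fibulins guide elastin onto the microfibrils and lysyl oxidases form the cross-links. Fibronectin, periostin, tenascin-C and SPARC are glycoproteins through which cells hold on to, or let go of, the matrix, and decorin and lumican are small proteoglycans that bind collagen fibrils. Fibroblasts and smooth muscle cells are the main producers of these proteins in lung.

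In OVA vs. Saline, Postn, Lox, Fbln5, Dcn, Fn1 and Sparc were lower, by 1.37 to 3.53 on the log2 scale, and no member was higher. Once the libraries were rescaled to a common 75th percentile, the first 4 of these were still lower, Fn1 and Sparc no longer passed, and Eln and Tnc passed as higher. In Herb vs. OVA, Fn1, Postn, Lox, Fbln5 and Sparc were higher, by 0.95 to 1.85. In Herb vs. Saline, Postn, Fbln5 and Dcn were still lower and Eln and Tnc were higher. Eln, the gene of elastin itself, and Tnc were not lower in OVA than in Saline by their means. The mean FPKM of Eln was 15.8 in Saline, 23.7 in OVA and 40.8 in Herb, and that of Tnc 0.898, 1.38 and 1.65. As deposited, neither gene passed in OVA vs. Saline or in Herb vs. OVA. The differences in Herb vs. OVA did not pass the test for any member after the same rescaling.

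The libraries differed as a whole, and this touches every value. Protein-coding RefSeq rows held 18.5 to 21.3% of all FPKM in Saline, 3.36 to 4.68% in OVA and 8.44 to 13.6% in Herb. The 75th percentile of FPKM, taken over the 30194 rows averaging 1 FPKM or more, was 5.11 to 5.39, 2.46 to 3.02 and 3.89 to 4.88. For both measures no group overlapped another (two-sided exact permutation tests, p = 0.1 in OVA vs. Saline and 0.0571 in the other comparisons, the smallest these group sizes allow, 0.1 and 0.0857 after adjustment over 6 tests). The median log2 fold change over the 11205 genes tested was -0.75 in OVA vs. Saline, 0.48 in Herb vs. OVA and -0.27 in Herb vs. Saline. After the FPKM of each library had been multiplied so that all shared a 75th percentile, these medians were -0.09, 0.04 and -0.05, and both versions are given for each member tested. Steps between the lowest values corresponded to an estimated 30100000 to 43200000 mapped reads per library in Saline, 40700000 to 59000000 in OVA and 29800000 to 42800000 in Herb. These estimates are rough, since whether a step stands for a read or for a pair of reads was not settled. The highest, 59000000, lay near the upper end of the range searched. In whole lung, fewer cells of a type and less RNA per cell cannot be told apart.

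Of the 10 members, 9 reached the mean of 1 FPKM required for the test and Lum did not. In OVA vs. Saline 6 of the 9 passed as lower and 0 as higher (limma, Benjamini-Hochberg adjusted p under 0.05, and 0 as higher at an unadjusted p under 0.05), where 57.9% of all genes tested passed as lower and 3.28% as higher. Their median log2 fold change was -1.50. After rescaling 4 members passed as lower and 2 as higher, beside 24.3% and 17.2% of all genes. In Herb vs. OVA 5 of the 9 passed as higher and 0 as lower, beside 44.0% and 0.446% of all genes, with a median of 1.23, and after rescaling 0 passed in limma (4 as higher at an unadjusted p under 0.05), beside 0.357% higher and 0.384% lower of all genes. In Herb vs. Saline 3 passed as lower and 2 as higher, beside 22.7% and 3.32% of all genes, and the same split was found after rescaling, beside 9.56% and 5.56%. Groups did not overlap for 6 of the 9 members in OVA vs. Saline, 5 in Herb vs. OVA and 4 in Herb vs. Saline, beside 67.6%, 50.2% and 43.6% of all genes tested. The comparisons of OVA vs. Saline and Herb vs. OVA share the OVA libraries, and the comparisons against Saline share the Saline libraries.

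**Figure D1:**
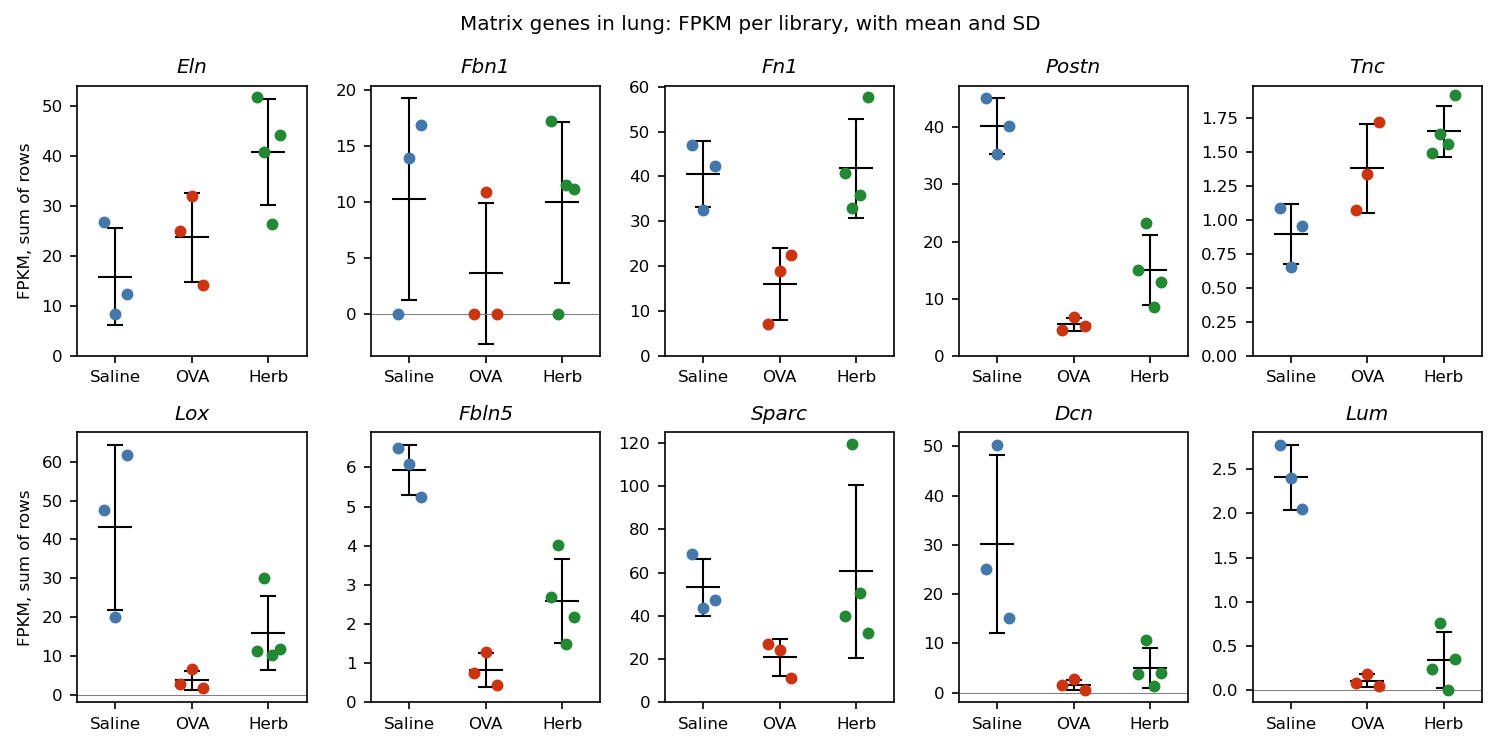
Summed FPKM of each member (y axis, linear, separate scale per gene) in every library of the Saline, OVA and Herb groups (x axis), with the mean and the SD as a bar. Postn, Lox, Fbln5, Dcn and Lum sat lowest in OVA and highest in Saline by their means, Eln and Tnc were highest in Herb, and Fbn1 was listed at 0 in 4 libraries.

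In Saline lung the members spanned from Sparc at 53.2 ± 13.3 FPKM (SD, n = 3) to Tnc at 0.898 ± 0.220. Lox (43.1 ± 21.3), Fn1 (40.6 ± 7.37) and Postn (40.2 ± 4.88) followed Sparc and did not differ beyond their spread, and Dcn stood at 30.2 ± 18.1. Below them came Eln at 15.8 ± 9.67, Fbn1 at 10.3 ± 9.00, Fbln5 at 5.94 ± 0.640 and Lum at 2.41 ± 0.365. The Fbn1 mean includes a listed 0 in Saline replicate 1, so its place in this order is uncertain. In OVA lung the order was another one, with Eln (23.7 ± 8.90), Sparc (20.8 ± 8.42) and Fn1 (16.1 ± 8.04) at the top, within each other's spread, and Postn next at 5.52 ± 1.15. In Herb lung Sparc (60.5 ± 40.0), Fn1 (41.9 ± 11.0) and Eln (40.8 ± 10.6) led, again within their spread.

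Eln (chr5:134702593-134747323, minus strand, all positions in GRCm38, the assembly of mm10) encodes tropoelastin, the soluble precursor of the elastic core. Its FPKM was 26.7, 8.33 and 12.4 in Saline, 24.9, 31.9 and 14.2 in OVA, and 51.7, 40.7, 26.4 and 44.3 in Herb. The OVA libraries overlapped both other groups, and the lowest Herb library lay just below the highest Saline library. Between OVA and Saline the log2 difference of Eln was 0.64 with an SE of 0.43 (limma adjusted p = 0.231), and it was 0.79 ± 0.41 (± SE here and for all log2 fold changes, adjusted p = 0.14) in Herb vs. OVA and 1.43 ± 0.41 (adjusted p = 0.0333) in Herb vs. Saline. After rescaling Eln passed as higher in OVA vs. Saline as well, by 1.52 ± 0.42 (adjusted p = 0.0185), and in Herb vs. Saline by 1.68 ± 0.39 (adjusted p = 0.0255), while Herb vs. OVA was 0.17 ± 0.39 (adjusted p = 0.816). As deposited, the call in Herb vs. Saline was lost without Saline replicate 2 or 3 or without Herb replicate 1, 2 or 4 (adjusted p from 0.0524 to 0.117), and OVA vs. Saline passed without Saline replicate 1 at 1.07 (adjusted p = 0.0432).

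Fbn1 (chr2:125300594-125507993, minus strand) encodes fibrillin-1, the main protein of the microfibrils. The FPKM of its only row was 0, 13.9 and 16.8 in Saline, 0, 10.9 and 0 in OVA, and 17.2, 0, 11.5 and 11.1 in Herb. Zeros stood in every group beside values above 10, and no comparison passed. The log2 fold change was -1.50 ± 1.49 in OVA vs. Saline, 1.67 ± 1.40 in Herb vs. OVA and 0.17 ± 1.40 in Herb vs. Saline (limma adjusted p = 0.409, 0.352 and 0.94), and -1.13, 1.51 and 0.38 after rescaling (adjusted p = 0.574, 0.518 and 0.88).

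The table also holds transcript models that the authors assembled from the reads, without symbol or coordinates. One of them is listed directly beside Fbn1, between Dut, which starts at chr2:125247248, and Cep152, which starts at chr2:125549864, and the table runs by start position in 99.2% of 22958 pairs of neighbours. This model stood at 20.7, 0 and 0 FPKM in Saline, at 9.04, 0.0109 and 5.98 in OVA, and at 0.0170, 17.6, 0.0062 and 3.61 in Herb. All 4 libraries in which Fbn1 was listed at 0 had 5.98 FPKM or more of the model, and of the other 6 libraries 5 had at most 0.0170 and Herb replicate 4 had 3.61. With the model added to Fbn1, a choice made after its values were seen, the log2 fold change was -0.93 ± 0.24 in OVA vs. Saline (limma adjusted p = 0.00822), 0.77 ± 0.23 in Herb vs. OVA (adjusted p = 0.0229) and -0.16 ± 0.23 in Herb vs. Saline (adjusted p = 0.633). Whether the model is a transcript of Fbn1 was not tested, since the table gives it no position.

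**Figure D2:**
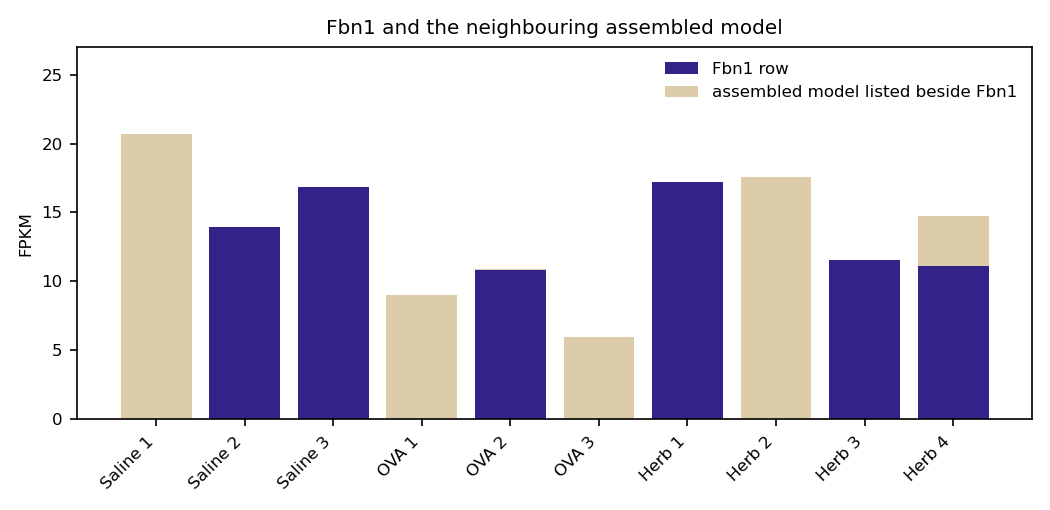
FPKM (y axis) of the Fbn1 row and, stacked on it, of the assembled model listed beside it, in each of the 10 libraries (x axis). In 9 of the 10 libraries nearly all FPKM of the pair lay on one or the other, and Herb replicate 4 had 11.1 on Fbn1 and 3.61 on the model.

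Fbln5 (minus strand of chr12, 101746565 to 101819055) encodes fibulin-5, which tethers elastin to microfibrils and to cells. Its FPKM was 6.50, 6.08 and 5.25 in Saline, 0.743, 1.28 and 0.450 in OVA, and 2.68, 4.01, 1.50 and 2.17 in Herb. The 3 groups did not overlap, and Herb lay between the other two. Fbln5 was lower in OVA vs. Saline by -1.95 ± 0.25 (limma adjusted p = 0.000232), higher in Herb vs. OVA by 0.95 ± 0.24 (adjusted p = 0.0129) and lower in Herb vs. Saline by -0.99 ± 0.24 (adjusted p = 0.0192). After rescaling these were -1.37 ± 0.22 (adjusted p = 0.00216), 0.62 ± 0.21 (adjusted p = 0.115) and -0.75 ± 0.21 (adjusted p = 0.0453). The last call, as deposited, was lost without Saline replicate 1 or 2 (adjusted p = 0.0621 and 0.067).

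Lox encodes lysyl oxidase, the copper enzyme that cross-links elastin and collagen. Its FPKM was 47.5, 19.9 and 61.8 in Saline, 2.78, 6.54 and 1.73 in OVA, and 11.3, 30.1, 10.3 and 11.8 in Herb. OVA lay below every library of the other groups, and Herb replicate 2 lay within the Saline range. Lox was lower in OVA vs. Saline by -3.23 ± 0.54 (limma adjusted p = 0.000809) and higher in Herb vs. OVA by 1.85 ± 0.51 (adjusted p = 0.0184), and Herb vs. Saline was -1.38 ± 0.51 (adjusted p = 0.0735). After rescaling the values were -2.43 ± 0.50 (adjusted p = 0.00555), 1.33 ± 0.47 (adjusted p = 0.125) and -1.10 ± 0.47 (adjusted p = 0.14). As deposited, the call in Herb vs. OVA was lost without OVA replicate 1 or 3 (adjusted p = 0.0616 and 0.0626), and Herb vs. Saline passed without Herb replicate 2 (-1.72, adjusted p = 0.0297). Of its 3 rows, 1 held all FPKM in 9 libraries, another had 4.64 FPKM in Saline replicate 2 alone, and the last was listed at 0 in all 10.

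Fn1 (minus strand of chr1, 71585520 to 71653200) encodes fibronectin, the adhesive glycoprotein that integrins assemble into fibrils. Its summed FPKM was 47.0, 32.6 and 42.3 in Saline, 7.04, 18.9 and 22.4 in OVA, and 40.8, 33.0, 35.9 and 57.6 in Herb. OVA lay below every library of the other groups, and Saline and Herb overlapped. Fn1 was lower in OVA vs. Saline by -1.41 ± 0.39 (limma adjusted p = 0.011) and higher in Herb vs. OVA by 1.43 ± 0.36 (adjusted p = 0.0136), and Herb vs. Saline was 0.02 ± 0.36 (adjusted p = 0.965). After rescaling none of these passed, and the sign in OVA vs. Saline turned under quantile normalization (0.24) and under rescaling on protein-coding rows (0.0645). The rescaled values at the 75th percentile were -0.52 ± 0.37, 0.83 ± 0.35 and 0.30 ± 0.35 (adjusted p = 0.284, 0.172 and 0.579).

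Fibronectin mRNA is spliced at sites known as extra domain A, extra domain B and the variable region. The 7 Fn1 rows differ at these exons, and 4 of them hold the exon of extra domain A, a domain of the cellular form of fibronectin that the plasma form from liver lacks. This exon is shown because the 3 Fn1 rows listed at exactly 0 in OVA replicates 1 and 2 all hold it. It covers chr1:71603660-71603929 on the minus strand (270 bases, in capitals, with 15 bases of each adjoining exon in lower case, from the GENCODE transcripts of GRCm38):
Fn1 extra domain A exon: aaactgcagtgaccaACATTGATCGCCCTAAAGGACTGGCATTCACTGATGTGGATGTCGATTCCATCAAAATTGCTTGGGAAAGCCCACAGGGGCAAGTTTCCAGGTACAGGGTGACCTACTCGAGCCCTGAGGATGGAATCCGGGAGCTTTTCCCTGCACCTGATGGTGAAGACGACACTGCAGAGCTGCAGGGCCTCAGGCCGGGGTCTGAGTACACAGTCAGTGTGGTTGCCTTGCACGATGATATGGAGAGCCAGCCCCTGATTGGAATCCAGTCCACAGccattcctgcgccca

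Rows with the extra domain A exon held 42.3, 33.8 and 27.5% of Fn1 FPKM in Saline, 0.567, 0.0917 and 44.9% in OVA, and 35.6, 36.0, 35.1 and 28.5% in Herb. OVA replicates 1 and 2 thus stood apart from the other 8 libraries, while OVA replicate 3 had the highest share of all. The groups did not differ by the two-sided exact permutation test (p = 0.4 in OVA vs. Saline, 0.286 in Herb vs. OVA and 1 in Herb vs. Saline, 0.933, 0.9 and 1 after adjustment over the 21 exon share tests). The 3 rows that hold the exon without extra domain B were each listed at exactly 0 in OVA replicates 1 and 2, and exact zeros in such a table can be failed estimates. An assembled model listed beside Fn1 was also at 0 in these 2 libraries and at 6.91 FPKM in OVA replicate 3, and it ranged from 2.36 to 5.46 FPKM in the Saline and Herb libraries.

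The row with both extra domains, the only one to hold the 273-base exon of extra domain B, reached at most 0.898 FPKM, in Herb replicate 4, and stood at 0.0399 or lower in the other libraries. At the variable region, the rows with the short 107-base form of the exon, which leaves that region out, held 17.2, 6.74 and 12.2% of Fn1 FPKM in Saline, 12.3, 36.8 and 41.9% in OVA, and 30.3, 19.5, 24.4 and 27.4% in Herb. Every Herb library lay above every Saline library (exact permutation p = 0.0571, the smallest that 3 against 4 libraries allow, 0.9 after adjustment over the 21 tests), and OVA overlapped both. The row without extra domain A and with the longest variable exon, NM_001276410, was lower in OVA vs. Saline (17.4 ± 3.43 against 4.02 ± 0.902 FPKM, log2 fold change -1.87 ± 0.29, limma adjusted p = 0.00118) and rose to 13.9 ± 4.96 in Herb (1.52 ± 0.27 vs. OVA, adjusted p = 0.0153). The other Fn1 rows tested were not alike. NM_001276408 and NM_001276409 passed in the same directions in both comparisons, and NM_001276412 in Herb vs. OVA alone (1.71 ± 0.55, limma adjusted p = 0.0409). These are the rows listed at exactly 0 in OVA replicates 1 and 2, so their calls rest largely on zeros that can be failed estimates. In OVA replicate 3 they stood at 3.02, 3.31 and 3.73 FPKM, beside Herb means of 4.46, 4.59 and 4.57. NM_001276411 and NM_001276413 passed in neither comparison, the last with 0.58 ± 0.58 in OVA vs. Saline (adjusted p = 0.446). In Herb vs. OVA 0 of the 18 member rows tested passed in the rescaled libraries. Single rows were tested over all 30194 rows averaging 1 FPKM or more, of which 44.2% passed in either direction in OVA vs. Saline, 32.4% in Herb vs. OVA and 8.09% in Herb vs. Saline.

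**Figure D3:**
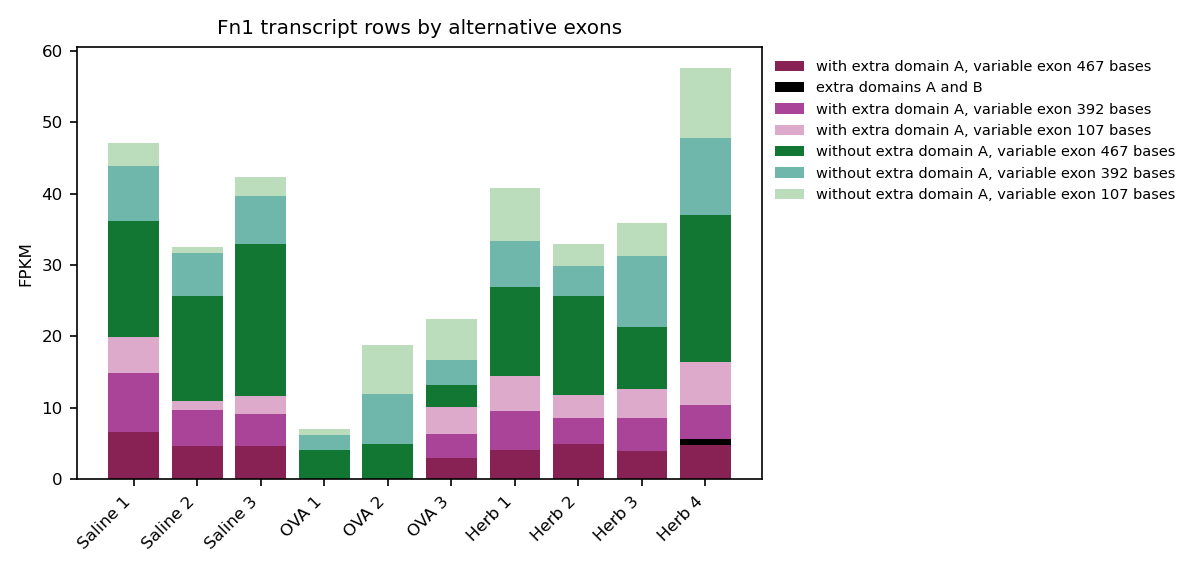
FPKM (y axis) of the 7 Fn1 transcript rows stacked for each library (x axis), coloured by extra domain exons and by the length of the variable exon. Rows with the extra domain A exon (purple tones) were at or near 0 in OVA replicates 1 and 2 and held 27.5 to 44.9% in the other 8 libraries.

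Postn (plus strand of chr3, 54361109 to 54391037) encodes periostin, a matricellular protein of fibroblasts that is also made by airway epithelium under type 2 cytokines. Its summed FPKM was 45.1, 35.4 and 40.2 in Saline, 4.53, 6.78 and 5.25 in OVA, and 15.1, 23.3, 8.59 and 13.0 in Herb. The 3 groups did not overlap, with OVA lowest and Saline highest. Postn was lower in OVA vs. Saline by -2.67 ± 0.30 (limma adjusted p = 0.00016), higher in Herb vs. OVA by 1.23 ± 0.28 (adjusted p = 0.0102) and lower in Herb vs. Saline by -1.44 ± 0.28 (adjusted p = 0.0112). After rescaling it stayed called in OVA vs. Saline (-1.82 ± 0.23, adjusted p = 0.00104) and Herb vs. Saline (-1.16 ± 0.22, adjusted p = 0.0161) and not in Herb vs. OVA (0.66 ± 0.22, adjusted p = 0.107).

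The 3 Postn rows differ by 2 cassette exons near the 3′ end of the coding region. One row has the exon of 81 bases at chr3:54380412-54380492, another the exon of 84 bases at chr3:54385671-54385754, and the last has neither. Both are shown because they part the rows whose shares moved between single libraries (exon in capitals, 15 bases of the adjoining exons in lower case):
Postn exon of 81 bases: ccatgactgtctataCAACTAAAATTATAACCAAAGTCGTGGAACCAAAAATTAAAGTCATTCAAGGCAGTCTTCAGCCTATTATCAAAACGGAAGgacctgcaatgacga
Postn exon of 84 bases: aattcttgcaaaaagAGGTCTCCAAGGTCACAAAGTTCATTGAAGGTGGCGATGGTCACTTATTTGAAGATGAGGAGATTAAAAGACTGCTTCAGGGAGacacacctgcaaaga

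The row without either exon was at 34.1, 26.4 and 35.1 FPKM in Saline, 4.53, 5.21 and 0 in OVA, and 9.24, 23.1, 8.55 and 12.9 in Herb. It fell in OVA vs. Saline (-3.33 ± 0.64, limma adjusted p = 0.00322) and rose in Herb vs. OVA (2.05 ± 0.60, adjusted p = 0.0311). Both calls include the 0 in OVA replicate 3, which can be a failed estimate. In that library the row with the exon of 84 bases held 98.5% of Postn FPKM. This row held 11.7% in Saline replicate 1 and at most 0.641% in the other 8 libraries. The row with the exon of 81 bases held 12.6 to 25.3% in Saline, 22.7% in OVA replicate 2 and 38.6% in Herb replicate 1, and at most 1.48% elsewhere.

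Tnc (minus strand of chr4, 63959785 to 64047015) encodes tenascin-C, an anti-adhesive glycoprotein of remodelling and inflamed tissue. Its FPKM was 1.08, 0.655 and 0.954 in Saline, 1.07, 1.34 and 1.72 in OVA, and 1.49, 1.63, 1.56 and 1.92 in Herb. Every Herb library lay above every Saline library, and OVA overlapped both. The log2 fold change was 0.32 ± 0.15 in OVA vs. Saline (limma adjusted p = 0.0883), 0.16 ± 0.14 in Herb vs. OVA (adjusted p = 0.362) and 0.49 ± 0.14 in Herb vs. Saline (adjusted p = 0.0341). After rescaling OVA vs. Saline passed as higher (0.83 ± 0.15, adjusted p = 0.00281), Herb vs. Saline stayed higher (0.59 ± 0.14, adjusted p = 0.0244), and Herb vs. OVA changed sign to -0.23 ± 0.14 (adjusted p = 0.309). As deposited, the call in Herb vs. Saline was lost when any of Saline replicates 1 to 3 or Herb replicates 1, 3 or 4 was left out (adjusted p from 0.0528 to 0.11). Tnc was thus measured near the lower limit of the test, at 2 FPKM or less in all libraries.

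Sparc (minus strand of chr11, 55394500 to 55423183) encodes a collagen-binding glycoprotein that also loosens cell contacts. Its FPKM was 68.5, 43.8 and 47.3 in Saline, 26.9, 24.3 and 11.2 in OVA, and 40.1, 119, 50.7 and 31.9 in Herb. OVA lay below all other libraries, and Herb replicate 2 stood above every library of the series. Sparc was lower in OVA vs. Saline by -1.37 ± 0.49 (limma adjusted p = 0.0347) and higher in Herb vs. OVA by 1.39 ± 0.46 (adjusted p = 0.0351), and Herb vs. Saline was 0.02 ± 0.46 (adjusted p = 0.979). After rescaling no comparison passed (-0.47 ± 0.47, 0.77 ± 0.44 and 0.30 ± 0.44, adjusted p = 0.444, 0.292 and 0.672), and the sign in OVA vs. Saline turned under quantile normalization (0.46) and under rescaling on protein-coding rows (0.12). As deposited, the first call was lost without Saline replicate 1, 2 or 3 or OVA replicate 3 (adjusted p from 0.0526 to 0.119), and the next without OVA replicate 1 or 3 or Herb replicate 2 or 3 (adjusted p from 0.0515 to 0.118).

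Dcn (plus strand of chr10, 97479609 to 97518143) encodes decorin, a small leucine-rich proteoglycan that binds collagen fibrils and TGF-beta. Its FPKM was 25.1, 50.3 and 15.2 in Saline, 1.47, 2.69 and 0.534 in OVA, and 3.76, 10.7, 1.40 and 4.03 in Herb. Both ovalbumin groups lay below every Saline library and overlapped each other. Of the 9 members tested, Dcn had the largest log2 fold change on the log2(FPKM + 1) scale in OVA vs. Saline, -3.53 ± 0.60 (limma adjusted p = 0.000851), and it was lower in Herb vs. Saline by -2.45 ± 0.56 (adjusted p = 0.017), while Herb vs. OVA was 1.08 ± 0.56 (adjusted p = 0.143). After rescaling the values were -2.84 ± 0.59 (adjusted p = 0.00547), -2.17 ± 0.55 (adjusted p = 0.0332) and 0.67 ± 0.55 (adjusted p = 0.461). As deposited, the call in Herb vs. Saline was lost without Saline replicate 2 (adjusted p = 0.0678).

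Lum, the gene of lumican, lies near Dcn on the same strand (97565128 to 97572703). Its FPKM was 2.78, 2.40 and 2.05 in Saline, 0.0819, 0.186 and 0.0470 in OVA, and 0.240, 0.758, 0 and 0.357 in Herb. Both ovalbumin groups lay below every Saline library. Its mean over all libraries, 0.889 FPKM, kept it out of the test. In the fit without a filter on low values it was lower in OVA vs. Saline (-1.62 ± 0.19, limma adjusted p = 0.000343) and in Herb vs. Saline (-1.37 ± 0.18, adjusted p = 0.00856), with 0.25 ± 0.18 in Herb vs. OVA (adjusted p = 0.37).

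**Figure D4:**
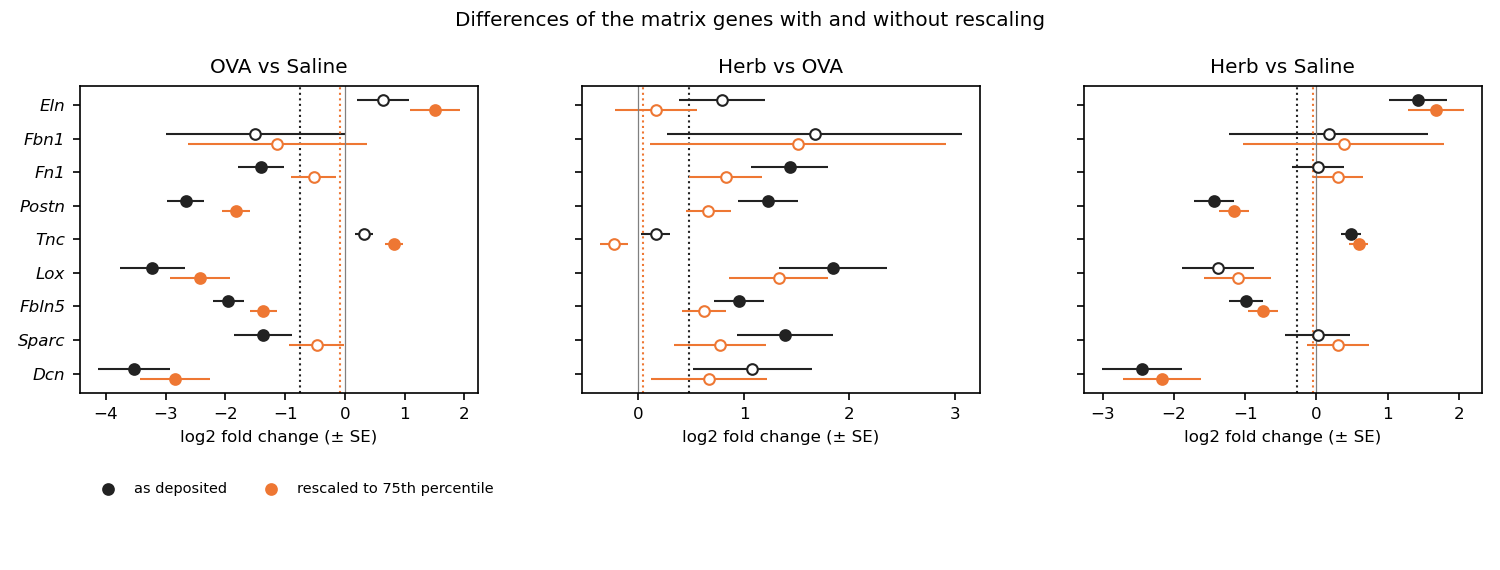
Log2 fold change with its SE (x axis) of the 9 members tested (y axis) in the 3 comparisons, as deposited (black) and after rescaling to the 75th percentile (orange), with filled points for an adjusted p under 0.05 and dotted lines at the median of all 11205 genes. Postn, Lox, Fbln5 and Dcn stayed filled in OVA vs. Saline in both versions, Eln and Tnc were filled there after rescaling alone, and no point of Herb vs. OVA was filled after rescaling.

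The promoters of Postn and Fbln5, which fell in OVA vs. Saline, and of Tnc, which did not, were searched on both strands for TATAAA (the TATA box), CAGAC (a core to which SMAD proteins of TGF-beta signalling bind) and TGANTCA (bound by AP-1). Windows of 250 bases upstream of a RefSeq start were used, and of 32851 such windows 12.4% hold TATAAA, 42.2% CAGAC and 6.75% TGANTCA. For each gene the window nearest to its annotated start is shown because these members moved differently, with matches in capitals (RefSeq, GRCm38.p6):
Postn, chr3:54360857-54361106, plus strand: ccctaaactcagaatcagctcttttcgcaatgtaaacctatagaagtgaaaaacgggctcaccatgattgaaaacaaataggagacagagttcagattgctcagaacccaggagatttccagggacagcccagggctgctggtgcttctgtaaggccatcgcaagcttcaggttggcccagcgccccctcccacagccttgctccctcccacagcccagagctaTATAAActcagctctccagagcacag
Tnc, chr4:64047016-64047265, minus strand: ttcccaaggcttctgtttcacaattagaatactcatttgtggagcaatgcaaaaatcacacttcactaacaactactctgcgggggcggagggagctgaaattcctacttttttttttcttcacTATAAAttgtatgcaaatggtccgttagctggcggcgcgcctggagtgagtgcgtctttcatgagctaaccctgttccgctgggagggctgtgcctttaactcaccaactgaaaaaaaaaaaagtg
Fbln5, chr12:101819120-101819369, minus strand: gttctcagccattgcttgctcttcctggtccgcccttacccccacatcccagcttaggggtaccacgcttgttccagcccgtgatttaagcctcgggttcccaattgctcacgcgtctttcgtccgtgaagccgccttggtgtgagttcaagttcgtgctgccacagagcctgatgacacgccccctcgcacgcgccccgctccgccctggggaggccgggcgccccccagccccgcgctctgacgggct

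The Postn and Tnc windows each held 1 TATAAA, and the Fbln5 window held none of the 3 motifs. A further start of Fbln5 had 2 CAGAC, a further start of Postn 1, the Sparc window 1 CAGAC and the Fbn1 window no match. The window of a further start of Tnc overlaps the one shown and held 1 CAGAC and the same TATAAA. No window of these members held TGANTCA. These matches describe the letters of the windows alone.

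The genes around these members were described with 4 lists, 88 genes in all, of which 63 were tested. In OVA vs. Saline 42 of the 63 passed as lower and 0 as higher, with a median log2 fold change of -1.11 beside -0.75 for all genes, and after rescaling 24 passed as lower and 4 as higher with a median of -0.42 beside -0.09. In Herb vs. OVA 34 passed as higher and 0 as lower (median 0.74 beside 0.48), and after rescaling 2 passed as higher (median 0.29 beside 0.04). In Herb vs. Saline 16 passed as lower and 3 as higher (median -0.33 beside -0.27), and after rescaling 10 and 3. The shares of all genes given above for the members (57.9% lower in OVA vs. Saline, 44.0% higher in Herb vs. OVA, 22.7% lower in Herb vs. Saline, and 24.3%, 0.357% and 9.56% after rescaling) are the background for every list that follows.

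Among genes of elastic fibre assembly (microfibril-associated proteins, latent TGF-beta binding proteins, other fibulins and lysyl oxidases) 10 of 18 were lower in OVA vs. Saline, 9 were higher in Herb vs. OVA, and 2 were higher and 1 lower in Herb vs. Saline. After rescaling 2 were lower and 2 higher in OVA vs. Saline and 0 passed in Herb vs. OVA. Mfap4, a microfibril-associated protein, stood at 81.8, 66.2 and 67.6 FPKM in Saline, 6.86, 11.5 and 4.94 in OVA, and 44.2, 60.6, 17.8 and 31.7 in Herb, and was higher in Herb vs. OVA by 2.12 ± 0.39 (limma adjusted p = 0.00716, 0.073 after rescaling). Ltbp4, which binds latent TGF-beta and is needed for elastic fibres, was higher in Herb vs. Saline by 2.61 ± 0.65 (adjusted p = 0.0213), with 16.7, 17.2, 6.97 and 9.64 FPKM in Herb against 1.76, 0.638 and 1.06 in Saline. It stood at 6.88, 6.76 and 0.144 in OVA, so that 2 OVA libraries lay just below the lowest Herb library and 1 lay below all of Saline. Ltbp2, of the same family, was lower in Herb vs. Saline (0.496 ± 0.355 against 7.48 ± 1.81 FPKM, -2.52 ± 0.44, adjusted p = 0.00968), and Vcan, the gene of versican, was higher (2.27 ± 0.699 against 0.794 ± 0.234 FPKM, 0.85 ± 0.18, adjusted p = 0.0137).

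Of the matricellular and adhesive glycoproteins 14 of 18 were lower in OVA vs. Saline, 10 higher in Herb vs. OVA and 7 lower in Herb vs. Saline, and after rescaling these counts were 12, 1 and 3. Ctgf, a matricellular protein induced by TGF-beta, was at 76.9, 70.3 and 58.3 FPKM in Saline, 5.65, 10.2 and 2.02 in OVA, and 33.4, 35.6, 13.6 and 14.2 in Herb (OVA vs. Saline -3.51 ± 0.51, limma adjusted p = 0.000399). Ecm1 was at 15.8, 10.6 and 12.6 FPKM in Saline and 2.19, 0 and 0 in OVA (-3.24 ± 0.43, adjusted p = 0.000255) and between 6.64 and 11.9 in Herb (2.70 ± 0.40 vs. OVA, adjusted p = 0.00716, 0.0651 after rescaling). Both differences of Ecm1 rest partly on the exact zeros in OVA, which can be failed estimates. Agrn, the gene of the basement membrane proteoglycan agrin, was at 0.791, 0.999 and 0.867 FPKM in OVA and 8.89, 9.65, 6.52 and 8.22 in Herb (2.29 ± 0.19, adjusted p = 0.00249), and it stayed called after rescaling (1.92, adjusted p = 0.00157). Nid1, the gene of nidogen-1, was lower in Herb vs. Saline (4.17 ± 3.35 against 16.6 ± 4.22 FPKM, -1.98 ± 0.49, adjusted p = 0.0215).

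The small leucine-rich proteoglycans other than Dcn and Lum had 6 tested genes, of which 3 were lower in OVA vs. Saline, 3 higher in Herb vs. OVA, and 2 lower and 1 higher in Herb vs. Saline. After rescaling 3 were lower and 1 higher in OVA vs. Saline and 0 passed in Herb vs. OVA. Ogn, the gene of osteoglycin, stood at 138, 188 and 127 FPKM in Saline, 6.88, 13.9 and 2.94 in OVA, and 38.3, 55.0, 18.1 and 18.6 in Herb. It was lower in OVA vs. Saline by -4.27 ± 0.54 (limma adjusted p = 0.000209), higher in Herb vs. OVA by 1.96 ± 0.50 (adjusted p = 0.0143, 0.115 after rescaling) and lower in Herb vs. Saline by -2.31 ± 0.50 (adjusted p = 0.0148). Podn, the gene of podocan, was higher in Herb vs. Saline (2.89 ± 0.353 against 1.49 ± 0.148 FPKM, 0.64 ± 0.16, adjusted p = 0.0209).

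Of the receptors for fibronectin and other matrix proteins 15 of 21 were lower in OVA vs. Saline, 12 higher in Herb vs. OVA and 6 lower in Herb vs. Saline, and after rescaling 7 were lower and 1 higher, 1 was higher and 5 were lower. Itgav, the integrin alpha v chain that pairs with several beta chains to bind fibronectin and latent TGF-beta, was at 13.8, 12.6 and 12.6 FPKM in Saline, 0.627, 0.871 and 0.566 in OVA, and 3.79, 8.28, 6.16 and 6.86 in Herb. It was higher in Herb vs. OVA by 2.07 ± 0.20 (limma adjusted p = 0.00412), and it stayed called after rescaling (1.74, adjusted p = 0.00928), as did Agrn and no other gene of the 4 lists. Itga8, a fibronectin and nephronectin receptor chain of mesenchymal cells, was lower in OVA vs. Saline by -3.15 ± 0.55 (adjusted p = 0.00101) and in Herb vs. Saline by -1.75 ± 0.52 (adjusted p = 0.0378, 0.0664 after rescaling). Cd36, a thrombospondin receptor also known as a fatty acid transporter of capillaries, was lower in OVA vs. Saline by -3.56 ± 0.45 (adjusted p = 0.000212) and in Herb vs. Saline by -2.18 ± 0.42 (adjusted p = 0.0109).

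**Figure D5:**
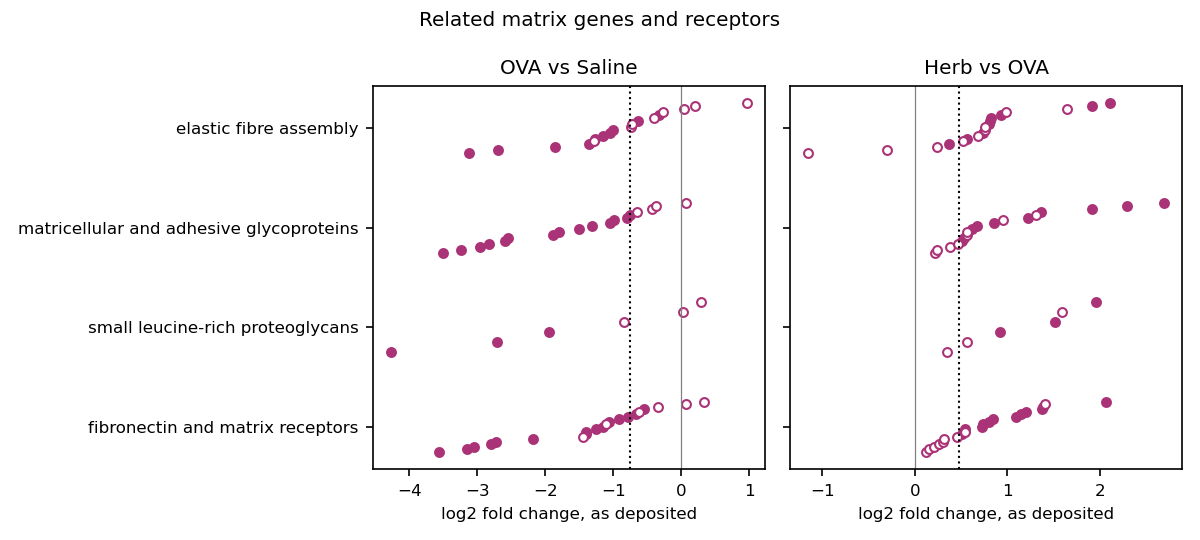
Log2 fold change as deposited (x axis) of each tested gene in the 4 related lists (y axis) in OVA vs. Saline and Herb vs. OVA, filled for an adjusted p under 0.05, with a dotted line at the median of all genes. All 42 filled points lay below 0 in OVA vs. Saline and all 34 above 0 in Herb vs. OVA.

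Summed markers of fibroblasts were lower in OVA than in Saline, as most of the members were. In Herb the fibroblast sum lay below Saline and overlapped OVA. The smooth muscle sum overlapped between OVA and Saline as deposited, and was higher in OVA without overlap after rescaling. The summed FPKM of 11 fibroblast markers, among them Pdgfra and Tcf21, was 612 to 669 in Saline, 26.9 to 124 in OVA and 117 to 354 in Herb, with 7 of the 11 lower in OVA vs. Saline, 6 higher in Herb vs. OVA and 1 lower in Herb vs. Saline. After rescaling the sums were 479 to 506, 38.2 to 164 and 120 to 290, with 6 of the 11 lower and 1 higher in OVA vs. Saline and 0 called in both other comparisons. Most of the sum in Saline was Inmt, at a mean of 487, 40.1 and 127 FPKM in Saline, OVA and Herb. Col13a1 went the other way, with means of 2.09, 4.08 and 4.69 FPKM. Both were named after their values were seen. The sum of 8 smooth muscle markers was 30.3 to 44.0 FPKM in Saline, 35.1 to 48.0 in OVA and 38.5 to 72.9 in Herb, with 0 of the 8 called in OVA vs. Saline (4 higher after rescaling), 2 higher in Herb vs. OVA (0 after rescaling) and 1 higher in Herb vs. Saline (2 after rescaling). The rescaled smooth muscle sums were 22.5 to 33.4 in Saline, 50.1 to 63.5 in OVA and 39.6 to 69.6 in Herb.

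Marker lists of other cells also differed between the groups. Sums of 6 pericyte markers were 28.2 to 37.2, 10.05 to 15.7 and 16.9 to 30.8 FPKM in Saline, OVA and Herb, with 5 of the 5 tested lower in OVA vs. Saline (1 after rescaling), and those of 6 endothelial markers 344 to 426, 67.2 to 106 and 147 to 280 FPKM, with 5 of 6 lower (3 after rescaling). The 7 lung epithelial markers summed to 17173 to 26727, 2930 to 5560 and 8673 to 13831 FPKM. Of these, 6 of 7 fell in OVA vs. Saline and 5 rose in Herb vs. OVA (5 and 0 after rescaling). Most of the sum was Scgb1a1, at a mean of 17538, 3929 and 9132 FPKM, and Cdh1 was listed at 0 in OVA replicate 1. The other markers of this list were above 0 in all 10 libraries. Scgb1a1 and Cdh1 were named after their values were seen. The 6 macrophage markers summed to 97.8 to 207, 83.3 to 283 and 355 to 626 FPKM, with 3 of the 4 tested higher in Herb vs. OVA and 0 after rescaling. Most of this sum was Chil3, at a mean of 107, 156 and 470 FPKM. Cd68 was lower in Herb vs. Saline (4.36 against 9.56 FPKM, limma adjusted p = 0.0317, 0.121 after rescaling). By their means Adgre1 (6.91 against 3.93 FPKM), Mrc1 (25.4 against 21.8) and Marco (0.612 against 0.560) were higher in Herb than in Saline. Csf1r had at most 0.158 FPKM in Saline and 0 in each of the OVA and Herb libraries. These genes were named after their values were seen. Markers of mesothelium (0.271 to 11.2 FPKM over all libraries, 1 of the 2 tested lower in OVA vs. Saline) and fat (0 to 2.27, none tested) were low. Those of cartilage summed to 1.61 to 19.6 FPKM, with the 1 tested, Cytl1, lower in OVA vs. Saline. Most of the cartilage sum in Saline was Cytl1, at a mean of 17.1, 2.03 and 5.15 FPKM in Saline, OVA and Herb. It was named after its values were seen. The part of these cell types in the differences of the matrix genes was not tested.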

How the data were processed

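RNA-seq was performed on lung tissue, in 10 libraries. The authors trimmed the reads, aligned them to the mouse genome mm10 and assembled and quantified transcripts. The submitters' processing notes name cutadapt 1.10, HISAT2, StringTie 1.3.3b and edgeR 3.16.5. The authors deposited 1 table of FPKM with a row per transcript, of which 34943 rows have a RefSeq identifier and symbol and 31605 are assembled models without either. FPKM share out the fragments of a library, so a class of RNA that takes up more of them lowers all other values, and the table carries no further scaling. The labels name a non-stranded kit and Trizol, the methods a stranded messenger RNA kit and a column, and which applied is not known here.

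Groups were taken from the labels. Groups were compared with limma 3.58.1 (R 4.3.3) on log2(FPKM + 1), a scale that understates changes of low genes, with all 10 libraries, 3 group means and an intensity trend, over the 11205 gene sums or 30194 rows averaging 1 FPKM or more. Benjamini-Hochberg adjustment was made over all of them, and a call is an adjusted p under 0.05. Alternatives were a pseudocount of 0.1, no filter, rescaling to the 75th percentile, quantile normalization, rescaling on protein-coding rows, 2 groups only, no trend, a replicate block, each library left out, and neighbouring assembled models added, the last chosen after the data were seen. The rule named, from the 4 related lists, up to 5 genes per direction and comparison among calls whose groups do not overlap. The members and lists were chosen with earlier results of these data known. Figures were drawn with matplotlib 3.10.9 in Python 3.11.15. The procedure was tested on simulated data. Depth was estimated from steps between low values, since no counts were used, so no counting intervals are given.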

Additional observations from a re-analysis of the deposited data

Results flagged for a closer look

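Lox in Herb replicate 2, at 30.1 FPKM, stood apart from the other Herb libraries at 10.3 to 11.8 FPKM. Its gap to the nearest of them was 0.922 of the range of the group, above Dixon's critical value at the 95% level for 4 libraries. Only the 4 Herb libraries could be examined in this way, since the other groups have 3. Chance gives such a value in about 1 of 20 groups for a single gene, and more often where several genes are examined. Without this library Lox passed as lower in Herb vs. Saline (log2 fold change -1.72, limma adjusted p = 0.0297).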

How the results depend on the processing

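The 6 calls of members in OVA vs. Saline changed in number by less than 1.5 times under every alternative, but split into 4 lower and 2 higher under each of the 3 other scalings, while those in Herb vs. OVA depended on the scaling. In Herb vs. OVA 0 instead of 5 members and 0 instead of 8 member rows passed under rescaling to the 75th percentile, quantile normalization and rescaling on protein-coding rows, and 2, 2 and 4 instead of 34 related genes. Member rows called there were 4 without a filter, 5 with 2 groups only and 3 with the replicate block. In OVA vs. Saline 6 instead of 10 member rows passed under quantile normalization and under rescaling on protein-coding rows, and 27 related genes under quantile normalization (20 lower, 7 higher) and 28 on protein-coding rows (16 lower, 12 higher). In Herb vs. Saline quantile normalization left 2 members, 1 member row and 7 related genes, the replicate block 3 members instead of 5 and 1 row instead of 3, and a pseudocount of 0.1 left 0 rows. With 1 library left out at a time, members called in Herb vs. OVA ranged from 3 to 5, their rows from 0 to 8 and related genes from 20 to 36, and in Herb vs. Saline members from 1 to 5, rows from 0 to 3 and related genes from 7 to 26. Counts moved by over 1.5 times in Herb vs. OVA for members (3) and related genes (20) without OVA replicate 1 or 3, and for rows without OVA replicate 1 (0) or 3 (5) or Herb replicate 1 (2) or 2 (4). In Herb vs. Saline they moved for members without Saline replicate 1, 2 or 3 (3, 1 and 3) or Herb replicate 1 or 4 (3 each), for related genes without Saline replicate 1, 2 or 3 (10, 7 and 12), and for rows without Saline replicate 1, 2 or 3 or Herb replicate 3 or 4 (0 each) or Herb replicate 1 (1).

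Signs changed for Eln in Herb vs. OVA (-0.25 under quantile normalization, -0.0503 on protein-coding rows), Tnc in Herb vs. OVA (-0.23 at the 75th percentile, -0.25 and -0.39 under these), Fn1 in OVA vs. Saline (0.24 and 0.0645) and Sparc in OVA vs. Saline (0.46 and 0.12). The median over all genes in OVA vs. Saline was 0.35 when scaled on protein-coding rows. Tnc in OVA vs. Saline was -0.22 and Fbn1 in Herb vs. Saline -0.16 with neighbouring models added. In Herb vs. Saline Fbn1 was -0.0739 and Fn1 -0.14 under the replicate block, and with a library left out Fbn1 ranged from -1.17 to 1.13, Fn1 from -0.14 to 0.14 and Sparc from -0.37 to 0.26. Libraries with the same replicate number did not deviate together (correlations from -0.0087 to 0.0953 over 9 pairs, and from -0.170 to 0.227 between different numbers). With so few libraries per group this cannot settle whether the numbers pair the samples. The cause of these changes was not tested. The number of libraries and the unknown counts limit the precision.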

Other observations

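With the neighbouring assembled models added, a choice made after the data were seen, Eln passed as higher in Herb vs. OVA (log2 fold change 0.95, limma adjusted p = 0.0416) and Lox as lower in Herb vs. Saline (-1.24, adjusted p = 0.0413). An assembled model listed beside Postn stood at 19.9, 17.8 and 14.8 FPKM in Saline, 2.93, 4.68 and 1.64 in OVA, and 7.30, 9.90, 5.68 and 3.13 in Herb. Saline lay above the other groups, which overlapped. Another model listed beside Postn differed less, at 9.16, 7.85 and 8.38 FPKM in Saline, 6.29, 7.50 and 7.17 in OVA, and 9.23, 9.64, 8.71 and 9.54 in Herb. The remaining models there were listed at 0 in all libraries. An assembled model listed among the neighbours of Lox was at 20.3 FPKM in Saline replicate 2 and 12.9 in Herb replicate 1 and at 0 in the other 8 libraries. None of these models has a symbol or a position in the table.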
